A study of Mus musculus with 20 samples.

Results

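The 8 genes described here encode enzymes that make retinoic acid or remove it and its precursor: the retinaldehyde dehydrogenases *Aldh1a1*, *Aldh1a2* and *Aldh1a3*, the cytochrome P450 *Cyp1b1* and the retinol dehydrogenase *Dhrs9* on the side of synthesis, and *Cyp26a1*, *Cyp26b1* and the retinal reductase *Dhrs3* on the side of clearance. They were looked up by symbol among the 24411 genes in the deposited table, and all 8 were found there. RNA was sequenced from the outer eyecup (the retinal pigment epithelium, RPE, with the choroid) of C57BL/6 mice in 4 groups of 5 samples. VAS WT and VAD WT were wild-type mice kept for 12 weeks after weaning on a vitamin A sufficient diet (VAS, 4 IU per g) or on a vitamin A deficient diet (VAD, 0 IU per g). VAS *Stra6-/-* and VAD *Stra6-/-* were mice that lacked the retinol transporter gene *Stra6* and were kept on the same diets for the same time. By the account of the study, each sample pooled both eyecups of 1 mouse, wild-type mice came from a supplier whereas the mutants were bred locally, so that they were not described as littermates, and all mice had chow rich in vitamin A before weaning. Values are gene counts divided by 1 size factor per library and are called normalized values. Means are printed ± SD over the 5 libraries of a group (n = 5).

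Retinol is oxidised to retinal by retinol dehydrogenases, and retinal to retinoic acid by the Aldh1a enzymes. This last step is not reversible. Retinoic acid binds the nuclear receptors RAR and RXR and so regulates genes, and the Cyp26 enzymes hydroxylate it, which ends its signal. *Cyp26a1* and *Dhrs3* are themselves classical genes induced by retinoic acid, and the Aldh1a genes are expressed in different places of the eye.

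*Cyp26a1* lies on chromosome 19 from 37697798 to 37701536 of GRCm38 on the plus strand. The RefSeq promoter windows of GRCm38.p6, which run from 250 bases before to 50 bases after a start site, were searched on both strands for a direct repeat of the retinoic acid receptor core hexamer AGGTCA or its variants AGTTCA and GGTTCA or GGGTCA. With a spacer of 5 bases, such a repeat was found in 32 of 32851 windows (0.0974%), among them the window of *Cyp26a1*. It lay at chr19:37697776-37697792, from 32 to 16 bases before the start site, on the strand opposite to the gene, with AGTTCA as both hexamers. With a spacer of 2 bases, the repeat was found in 88 windows (0.268%) and in none of a member. Windows, 10 in all, were given for 7 of the 8 members, which leaves out *Aldh1a3*. The windows of both Cyp26 genes are shown because this pair went in opposite directions between VAS *Stra6-/-* and the libraries with the VAD *Stra6-/-* label. They are written 5′ to 3′ on the strand of each gene, with the repeat in capitals, and the window of *Cyp26a1* is chr19:37697558-37697857 (plus strand) and that of *Cyp26b1* is chr6:84593761-84594060 (minus strand).
Cyp26a1: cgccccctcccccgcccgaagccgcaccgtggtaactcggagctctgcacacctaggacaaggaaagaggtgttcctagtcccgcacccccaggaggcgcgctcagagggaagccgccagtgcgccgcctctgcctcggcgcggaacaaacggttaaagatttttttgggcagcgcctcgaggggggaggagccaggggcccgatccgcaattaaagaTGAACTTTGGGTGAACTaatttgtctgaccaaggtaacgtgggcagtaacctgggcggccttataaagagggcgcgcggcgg
Cyp26b1: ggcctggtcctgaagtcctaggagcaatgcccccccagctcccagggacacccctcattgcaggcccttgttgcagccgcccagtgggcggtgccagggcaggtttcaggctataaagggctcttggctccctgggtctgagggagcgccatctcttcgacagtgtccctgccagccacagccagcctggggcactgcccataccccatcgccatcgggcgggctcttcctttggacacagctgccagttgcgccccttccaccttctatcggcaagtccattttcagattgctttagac
The capitals mark a match of letters and not a measured binding site, and a window without a match lacks only these letters.

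Between 13331903 and 21878614 reads stood behind each library. For the targeted gene *Stra6*, VAS WT libraries averaged 2591 ± 149 and VAS *Stra6-/-* libraries 629 ± 49.8, whereas the average was 2163 ± 154 in the libraries with the VAD *Stra6-/-* label, which goes against that label. Those libraries are therefore called by their label, and each direction drawn from them carries this doubt. In VAD WT, *Stra6* was at 669 to 697 in replicates 1, 3 and 5 and at 1340 and 1529 in replicates 2 and 4, below every VAS WT library (log2 fold change -1.49, adjusted p = 6.74e-06, limma). The former range overlapped with that of VAS *Stra6-/-* (564 to 694), so that the level of *Stra6* does not tell these 3 libraries from mutant ones, and the wild-type label of VAD WT could not be checked with it. Within this group, replicates 2 and 4 stood apart from replicates 1, 3 and 5: the X-inactivation transcript *Xist* was at 10912 and 11767 against 174 to 234, and the Y-linked *Ddx3y* at 75.2 and 80.5 against 1041 to 1133. *Xist* and *Ddx3y* also separated VAS *Stra6-/-* (*Xist* 15320 to 18052, *Ddx3y* 0 to 1.02) from VAS WT (*Xist* 7.69 to 38.4, *Ddx3y* 981 to 1193), so that genotype and sex cannot be told apart on this diet. The libraries labelled VAD *Stra6-/-* carried both, with *Xist* at 3570 to 4280 and *Ddx3y* at 741 to 970. This mixture goes against the account of 1 mouse per library. In VAD WT, *Ddx3y* in replicates 2 and 4 exceeded all of VAS *Stra6-/-*, and *Xist* in replicates 1, 3 and 5 exceeded all of VAS WT. The number of mice behind a library was not tested, so that n counts libraries. Of 5 sex-linked genes, some were called in every comparison but that of the libraries labelled VAD *Stra6-/-* with VAD WT, where 0 were called. In that comparison, *Xist* of the libraries labelled VAD *Stra6-/-* lay above VAD WT replicates 1, 3 and 5 and below replicates 2 and 4. *Ddx3y* lay the other way round. Thus none of the comparisons is free of sex. The tissue label was checked against 13 RPE markers, of which none was at 0 in any group. Their summed value was 97720 to 112730 in VAS WT, 29434 to 51148 in VAD WT and 104685 to 109672 in VAS *Stra6-/-*. It was 429312 to 464750 in the libraries with the VAD *Stra6-/-* label. Markers of other tissues were present too. In VAS WT, 12 surface epithelium markers summed to 586051 to 719761 and 10 rod markers to 140673 to 160379. The libraries were thus not RPE and choroid alone, and sums of unlike lists do not measure amounts of tissue.

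Compared per kb of exon, the levels of the members spanned a wide range. In VAS WT, *Dhrs3* was highest at 1182 ± 45.8 normalized values per kb. *Aldh1a1* (378 ± 25.9) and *Aldh1a3* (371 ± 21.3) followed with overlapping ranges, then *Aldh1a2* (217 ± 27.4). *Cyp26b1* (129 ± 14.8) and *Cyp26a1* (102 ± 11.5) overlapped as well, and *Cyp1b1* was at 62.4 ± 4.12. *Dhrs9*, which encodes a dehydrogenase able to oxidise retinol, was at 0 in 14 of 20 libraries and had at most 9 reads in any library. It passed the filter of 5 reads over all libraries but was not called in any comparison, and no fold change is given for it. A count of 0 in a library allows up to 3 reads. In VAS *Stra6-/-*, *Aldh1a3* (681 ± 7.77 per kb) came second after *Dhrs3* and *Cyp26a1* (23.3 ± 7.48) seventh, and no neighbours in the order overlapped. In the libraries with the VAD *Stra6-/-* label, *Aldh1a2* (583 ± 41.9) and *Aldh1a1* (581 ± 42.8) followed *Dhrs3* and overlapped, and *Aldh1a3* (36.3 ± 3.50) was seventh. In VAD WT, *Cyp26b1*, *Cyp1b1* and *Cyp26a1* overlapped at 94.2 ± 72.3, 80.0 ± 67.5 and 75.7 ± 81.4 per kb. *Aldh1a2* overlapped with *Aldh1a1* above it and with *Aldh1a3* below it in the order. The other 7 members are described by their values in each library, in the order of replicates 1 to 5.

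*Aldh1a3*, one of the 3 enzymes that oxidise retinal to retinoic acid, lies on chromosome 7 from 66390890 to 66427517 (minus strand) and differed most between groups. Its normalized values were 1755, 1539, 1759.5, 1776 and 1736 in VAS WT. In VAD WT they were 1286, 1054, 1416, 1048 and 1568. They were 3125, 3099, 3192, 3139 and 3166 in VAS *Stra6-/-*. Every VAS *Stra6-/-* library thus lay above every wild-type library. In the libraries with the VAD *Stra6-/-* label the values were 146, 172, 186, 156 and 177, the lowest 5 of the 20. The mean of VAS *Stra6-/-* (3144 ± 35.9) was 18.8 times that of the libraries with the VAD *Stra6-/-* label (168 ± 16.2).

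*Aldh1a2*, the second of these enzymes, lies on chromosome 9 from 71215789 to 71296243 (plus strand). It was at 455, 531, 579.7, 454 and 435 in VAS WT. It was at 561, 1063, 579, 1168 and 595 in VAD WT, where replicates 2 and 4 were high and the other 3 close to VAS WT. The VAS *Stra6-/-* libraries had 419.5, 463, 486, 508 and 417 and overlapped with VAS WT. The libraries labelled VAD *Stra6-/-* had 1286, 1326, 1477, 1282 and 1227, above every other library.

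*Aldh1a1*, the last of them, which is also abundant in the cornea and lens, lies on chromosome 19 from 20492715 to 20643465 (plus strand). Its values were 1818, 1807, 2063, 1921 and 1733 in VAS WT. They were 4014, 2090.0, 3828, 2124 and 3728 in VAD WT, so that replicates 1, 3 and 5 were high and replicates 2 and 4 just above VAS WT. The VAS *Stra6-/-* libraries had 2151, 2373, 2368, 2119 and 2077, each above every VAS WT library. The libraries labelled VAD *Stra6-/-* had 2812, 2746, 2711, 2847 and 3236, within the range of VAD WT.

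*Cyp1b1* encodes a P450 that can oxidise retinol and retinal and is known from congenital glaucoma. It lies on chromosome 17 from 79701537 to 79715061 (minus strand). Its values were 332, 377, 349, 373 and 393 in VAS WT. In VAD WT they were 231, 907, 182, 888 and 129, that is, replicates 2 and 4 above and replicates 1, 3 and 5 below every VAS WT library. The VAS *Stra6-/-* libraries had 575, 639.8, 661, 666 and 613, all above VAS WT. With 1639, 1669, 1599, 1680.1 and 1539.7, the libraries with the VAD *Stra6-/-* label were the highest.

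*Cyp26a1*, the retinoic acid hydroxylase whose promoter window held the repeat, had values of 236, 205, 172, 196 and 203 in VAS WT. In VAD WT its values were 29.5, 276, 51.1, 369.7 and 24.7, again with replicates 2 and 4 above and replicates 1, 3 and 5 below all VAS WT libraries. It was low in VAS *Stra6-/-*, at 54.9, 42.8, 55.9, 55.7 and 21.5, from 23 to 66 reads per library, with no overlap with VAS WT. The libraries labelled VAD *Stra6-/-* had 270.0, 289, 266, 254 and 189 and overlapped with VAS WT.

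*Cyp26b1*, its paralog, lies on chromosome 6 from 84571414 to 84593908 (minus strand). Its values were 692, 823, 615, 680.0 and 649 in VAS WT. It was at 153, 972, 248, 875 and 272 in VAD WT, with the same order of libraries as for *Cyp26a1* in so far as replicates 2 and 4 were above and replicates 1, 3 and 5 below VAS WT. The VAS *Stra6-/-* libraries had 644, 756, 836, 820.1 and 781, which overlapped with VAS WT. The libraries labelled VAD *Stra6-/-* had 369.8, 336, 396, 391 and 339.9, below all libraries on the VAS diet.

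*Dhrs3*, which reduces retinal back to retinol, lies on chromosome 4 from 144892827 to 144928209 (plus strand) and varied least. Its values were 3343, 3301, 3513, 3626 and 3509 in VAS WT. They were 3112, 2722, 2867, 2533 and 2613 in VAD WT and 2871, 3236, 2973, 3022 and 2967 in VAS *Stra6-/-*, in both groups below every VAS WT library. The libraries labelled VAD *Stra6-/-* had 2994, 3010.0, 3286, 3002 and 3529 and overlapped with the other 3 groups.

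**Figure D1:**
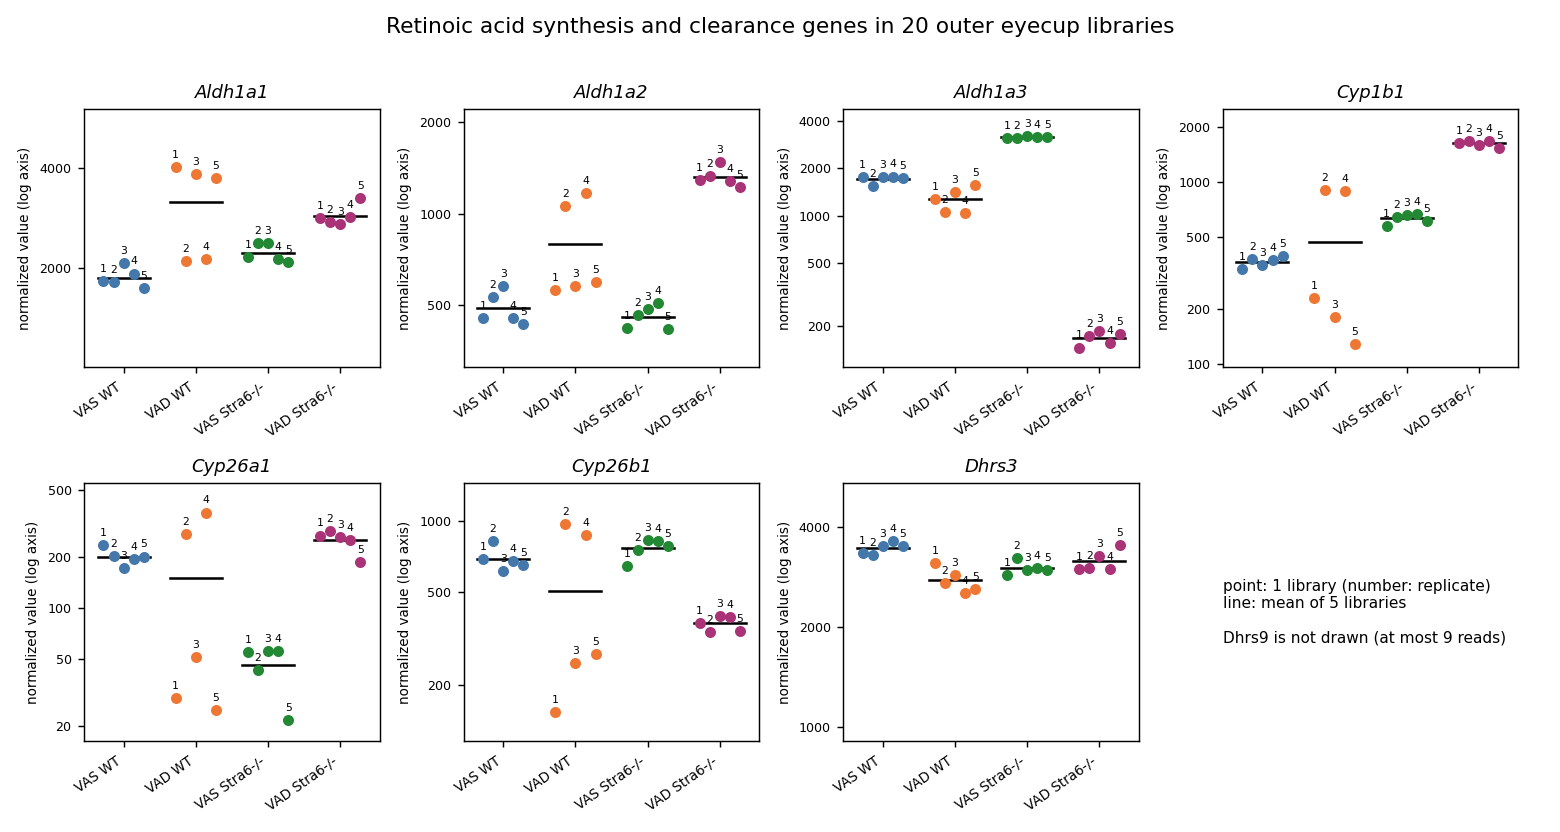
Normalized value (log axis) of 7 members in each of the 20 libraries; each point is 1 library with its replicate number, and each line is the mean of 5 libraries. VAD WT replicates 2 and 4 lie apart from replicates 1, 3 and 5 for all members shown but *Dhrs3*, and *Aldh1a3* is lowest in the libraries with the VAD *Stra6-/-* label.

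Loss of *Stra6* on the sufficient diet was addressed first, by comparing VAS *Stra6-/-* with VAS WT. *Aldh1a3* rose 1.84-fold and *Cyp26a1* fell to 0.221 of its level, while *Dhrs3* fell to 0.871. Folds here and below are back-transformed log2 fold changes, not ratios of group means, unless named as such. On the log2 scale of value + 1, which understates changes of low genes, *Aldh1a3* changed by 0.88 (standard error, SE, 0.10, adjusted p = 8.47e-07, limma). *Cyp26a1* changed by -2.18 (SE 0.55, adjusted p = 0.00502, limma), more than 99.1% of the genes tested, and *Dhrs3* by -0.20 (SE 0.07, adjusted p = 0.0281, limma). In bulk tissue, fewer cells of a type and less RNA per cell cannot be told apart. Thus 3 of the 7 members with reads were called at an adjusted p under 0.05, 1 higher and 2 lower, against 26.6% of the 18807 genes tested, 15.9% higher and 10.8% lower. *Cyp1b1* had a log2 fold change of 0.79 (SE 0.37, adjusted p = 0.130, limma) and *Aldh1a1* of 0.25 (SE 0.15, adjusted p = 0.241, limma). All 5 libraries of VAS *Stra6-/-* lay above all of VAS WT for both genes. With only these 2 groups in the fit, whose spread does not include that of VAD WT, *Aldh1a1* (adjusted p = 0.00483, limma) and *Cyp1b1* (adjusted p = 3.21e-06, limma) were called too, at the same fold changes. *Aldh1a2* (95% interval of the log2 fold change -0.44 to 0.26) and *Cyp26b1* (-0.56 to 0.86) did not pass the test. The call of *Dhrs3* was lost without VAS WT replicate 3, 4 or 5 or without VAS *Stra6-/-* replicate 1, 3 or 5 (adjusted p from 0.0523 to 0.0697, limma). Marker lists moved in this comparison too. Of 12 surface epithelium markers 4 were higher and 2 lower, with a sum of 899554 to 935604 against 586051 to 719761. All 6 skeletal muscle markers were higher (18410 to 21431 against 7046 to 8151), and 4 of 5 lens markers were lower (783 to 967 against 4569 to 5273), with none higher. The 9 fibroblast and sclera markers, of which 1 was higher and 1 lower, overlapped in their sum, at 41786 to 43136 against 41725 to 44263. The part of these tissues in the changes of the members was not tested.

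The deficient diet in wild-type mice was examined in VAD WT against VAS WT, a comparison that shares the VAS WT libraries with the one before. *Aldh1a1* rose 1.62-fold and *Aldh1a2* 1.54-fold, whereas *Aldh1a3* fell to 0.736 and *Dhrs3* to 0.799 of their levels. The log2 fold change was 0.70 for *Aldh1a1* (SE 0.15, adjusted p = 0.00365, limma) and 0.62 for *Aldh1a2* (SE 0.17, adjusted p = 0.0217, limma). It was -0.44 for *Aldh1a3* (SE 0.10, adjusted p = 0.0048, limma) and -0.32 for *Dhrs3* (SE 0.07, adjusted p = 0.00267, limma). With 4 of 7 members called, 2 in each direction, the background was 8.78% of all genes, 3.29% higher and 5.50% lower. *Cyp26a1* (log2 fold change -1.27, adjusted p = 0.173, limma), *Cyp26b1* (-0.82, adjusted p = 0.152, limma) and *Cyp1b1* (-0.11, adjusted p = 0.909, limma) were not called.

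This group was not uniform, also in its sex-linked transcripts, and the members separated with its libraries. When VAD WT replicates 2 and 4 were left out, all 7 members were called against VAS WT, with 37.9% of all genes called. *Cyp26a1* then fell by 2.55 (adjusted p = 4.60e-07, limma), *Cyp26b1* by 1.65 (adjusted p = 1.09e-08, limma) and *Cyp1b1* by 1.05 (adjusted p = 7.06e-07, limma) on the log2 scale, and *Aldh1a1* rose by 1.05 (adjusted p = 8.11e-11, limma). When replicates 1, 3 and 5 were left out instead, a choice made after seeing the data, *Cyp1b1* was higher than in VAS WT by 1.30 (adjusted p = 2.42e-10, limma) and *Cyp26b1* by 0.42 (adjusted p = 0.00707, limma), and *Aldh1a1* was no longer called (log2 fold change 0.18, adjusted p = 0.0831, limma). *Aldh1a2* rose and *Aldh1a3* and *Dhrs3* fell with either set of libraries. Leaving out single libraries, *Cyp26a1* (adjusted p = 0.0346 and 0.0138, limma) and *Cyp26b1* (adjusted p = 0.0121 and 0.0199, limma) were called lower without VAD WT replicate 2 or 4, and the call of *Aldh1a2* was lost without VAS WT replicate 1, 4 or 5 (adjusted p from 0.0547 to 0.0607, limma). With only VAS WT and VAD WT in the fit, *Dhrs3* alone was called, as the spread of VAD WT was then not averaged with that of the other groups.

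Marker genes of other tissues moved with the same libraries. The summed value of 12 surface epithelium markers, with none at 0, was 1102045 to 1136627 in VAD WT replicates 1, 3 and 5 and 398225 and 397043 in replicates 2 and 4, against 586051 to 719761 in VAS WT. Over all 5 VAD WT libraries, 0 of the 12 were called higher than in VAS WT and 3 were called lower. Not every marker followed the sum. *Krt14* was at 14512 to 15226 in replicates 1, 3 and 5, against a mean of 19510 in VAS WT. *Krt4* was at 10678 to 10768 in these replicates and at 11551 and 12017.5 in replicates 2 and 4. That of 9 fibroblast and sclera markers was 47675 to 49965 in replicates 1, 3 and 5 and 154512 and 158320.4 in replicates 2 and 4, against 41725 to 44263 in VAS WT, and that of 10 rod markers was 122776 to 126819 and 318674 and 319984 in the same sets, against 140673 to 160379. Most other lists were higher in replicates 2 and 4 as well. They were RPE (51148 and 50042 against 29434 to 31386), melanosome, endothelium, cone, inner retina and skeletal muscle markers. These are sums, and not every marker moved with its list. The RPE marker *Slc6a20a* (202 and 205 against 243 to 285) and the inner retina marker *Rax* (1105 and 1186 against 1196 to 1402) were lower in replicates 2 and 4. Lens markers were lower there, and macrophage markers overlapped. Within the group, *Aldh1a1* and *Aldh1a3* were higher where the surface epithelium and lens markers were higher. *Aldh1a2*, *Cyp1b1*, *Cyp26a1* and *Cyp26b1* were higher where the fibroblast and sclera, rod and these other markers were higher, so that no single tissue is singled out. The part of these tissues in the members' differences was not tested.

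**Figure D2:**
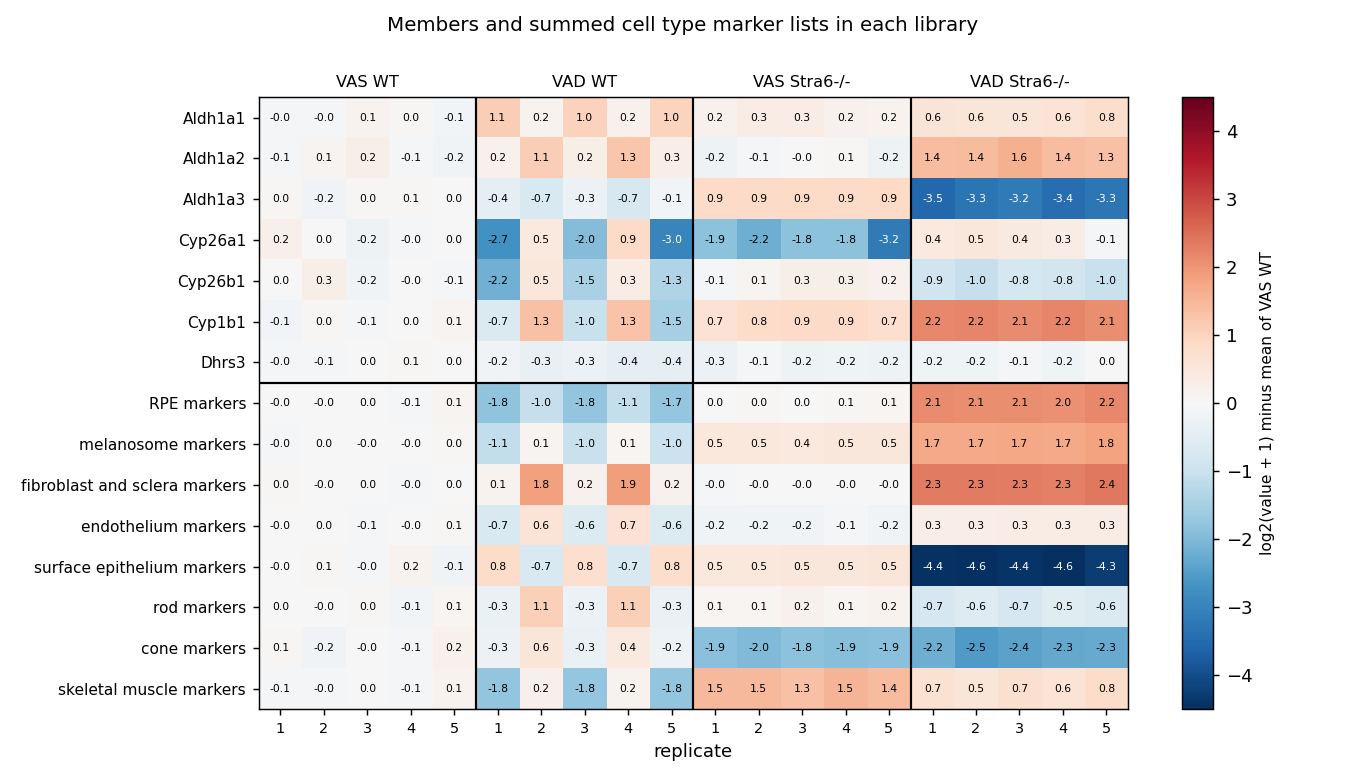
Log2(value + 1) of 7 members and of 8 summed marker lists in each library, minus the mean of VAS WT, with columns for the 20 libraries by group and replicate and colour and printed number giving the difference. In VAD WT, replicates 2 and 4 differ from replicates 1, 3 and 5 in both blocks, and the libraries with the VAD *Stra6-/-* label combine low *Aldh1a3* and surface epithelium markers with high *Aldh1a2*, *Cyp1b1*, RPE and fibroblast and sclera markers.

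The deficient diet without *Stra6* was examined by comparing the libraries with the VAD *Stra6-/-* label, in which *Stra6* was not low, with VAS *Stra6-/-*. Sex-linked transcripts differed between these groups too. *Aldh1a3* fell to 0.0534 of its level, and *Cyp26b1* to 0.479. *Cyp26a1* rose 5.64-fold, *Aldh1a2* 2.88-fold, *Cyp1b1* 2.58-fold and *Aldh1a1* 1.29-fold. For *Aldh1a3* the log2 fold change was -4.23 (SE 0.10, adjusted p = 9.91e-19, limma), larger in size than that of 98.1% of the genes tested. It was 2.49 for *Cyp26a1* (SE 0.55, adjusted p = 0.000572, limma), 1.52 for *Aldh1a2* (SE 0.17, adjusted p = 9.87e-08, limma) and 1.37 for *Cyp1b1* (SE 0.37, adjusted p = 0.00387, limma). *Cyp26b1* changed by -1.06 (SE 0.34, adjusted p = 0.0119, limma) and *Aldh1a1* by 0.37 (SE 0.15, adjusted p = 0.0389, limma). *Dhrs3* did not pass (0.07, 95% interval -0.07 to 0.20). So 6 of 7 members were called, 4 higher and 2 lower, where 53.2% of all genes were called, 24.4% higher and 28.8% lower. The call of *Aldh1a1* was lost in 7 of the 10 fits that each left out 1 of these libraries (adjusted p from 0.0521 to 0.0950, limma), those without replicate 1, 4 or 5 of VAS *Stra6-/-* or replicate 1, 2, 4 or 5 with the VAD *Stra6-/-* label.

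Against VAD WT, those libraries had *Aldh1a3* at 0.133 of its level, *Cyp1b1* 4.80-fold higher, *Cyp26a1* 2.997-fold higher, *Aldh1a2* 1.75-fold higher and *Dhrs3* 1.14-fold higher. As ratios of group means, *Cyp1b1* was 3.48-fold, *Cyp26a1* 1.69-fold and *Aldh1a2* 1.66-fold higher. The log2 fold change was -2.91 for *Aldh1a3* (SE 0.10, adjusted p = 6.97e-16, limma) and 2.26 for *Cyp1b1* (SE 0.37, adjusted p = 2.41e-05, limma). It was 1.58 for *Cyp26a1* (SE 0.55, adjusted p = 0.0180, limma), 0.81 for *Aldh1a2* (SE 0.17, adjusted p = 0.000310, limma) and 0.19 for *Dhrs3* (SE 0.07, adjusted p = 0.0161, limma). Hence 5 of 7 members were called, 4 higher and 1 lower, against 55.9% of all genes, 26.2% higher and 29.6% lower. *Aldh1a1* (-0.08, 95% interval -0.39 to 0.23) and *Cyp26b1* (-0.09, 95% interval -0.79 to 0.62) were not called.
The call of *Cyp26a1* was lost on recovered reads with edgeR (log2 fold change 0.68, adjusted p = 0.299) and DESeq2 (0.72, adjusted p = 0.327), as well as without VAD WT replicate 1 (adjusted p = 0.0662, limma) or 5 (adjusted p = 0.0721, limma). That of *Dhrs3* was lost without replicate 5 with the VAD *Stra6-/-* label (adjusted p = 0.0514, limma). With only these 2 groups in the fit, *Cyp26a1* (adjusted p = 0.117, limma) and *Dhrs3* (adjusted p = 0.0517, limma) were not called. Against VAD WT replicates 1, 3 and 5 only, *Cyp26b1* was higher by 0.74 (adjusted p = 0.000102, limma), and against replicates 2 and 4 only its log2 fold change was -1.33 (adjusted p = 1.10e-08, limma). Against replicates 2 and 4 only, *Aldh1a2* (log2 fold change 0.24, adjusted p = 0.0734, limma) was no longer called. *Aldh1a1* was lower than in replicates 1, 3 and 5 (log2 fold change -0.43, adjusted p = 6.48e-06, limma) and higher than in replicates 2 and 4 (log2 fold change 0.44, adjusted p = 6.65e-05, limma), while *Cyp26a1* was at -0.35 against the latter (adjusted p = 0.339, limma). *Aldh1a3* and *Cyp1b1* kept their direction and their call against either set.

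In both comparisons with the libraries with the VAD *Stra6-/-* label, cell type markers moved as well. All 12 surface epithelium markers were lower, and their summed value was 26544 to 33533 against 899554 to 935604 in VAS *Stra6-/-*. Of 9 fibroblast and sclera markers, 9 were higher than in VAS *Stra6-/-* and 8 higher than in VAD WT, with a sum of 210107 to 222178 against 41786 to 43136 in VAS *Stra6-/-*. Of 13 RPE markers, 12 were higher in each comparison. The corneal keratin *Krt12* was at 2851 ± 512, against 277635 ± 4370.0 in VAS *Stra6-/-*. The part of these cell types in the members' differences was not tested.

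**Figure D3:**
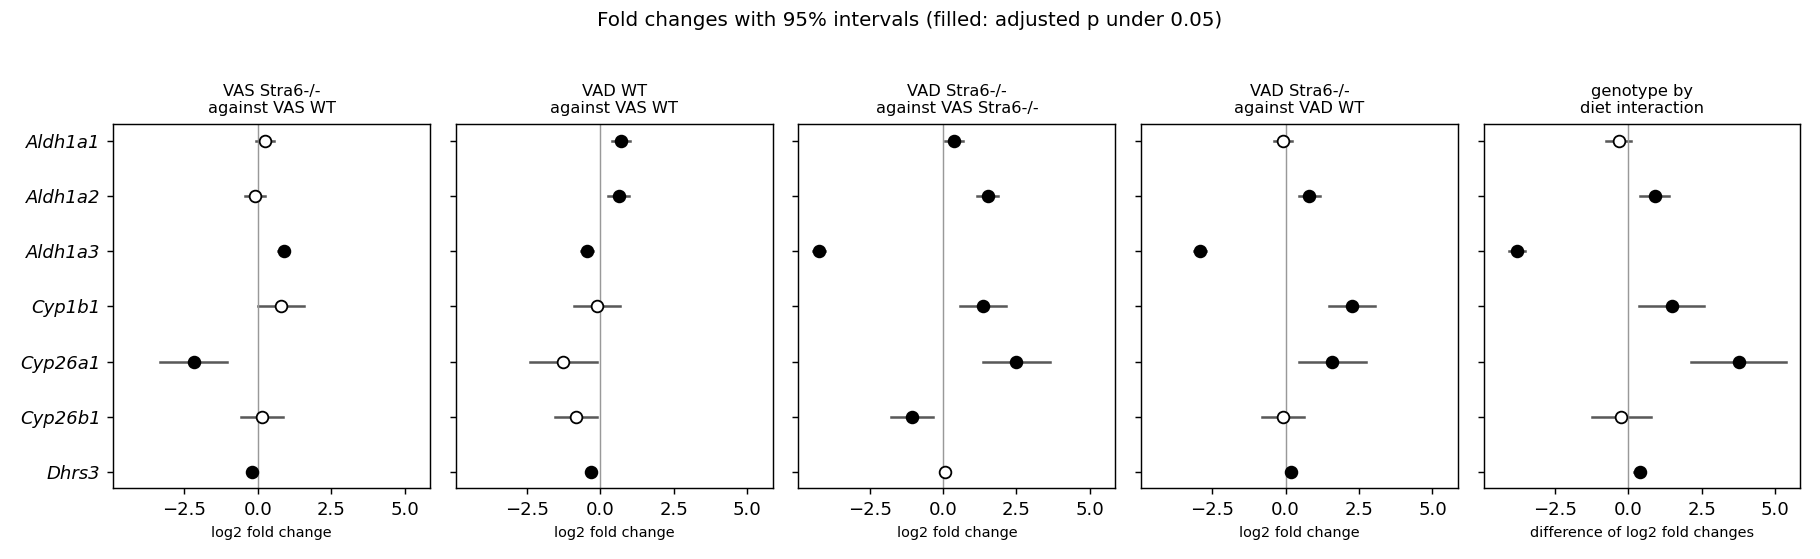
Log2 fold change of 7 members in 4 comparisons, and the difference between the fold changes by diet in the genotypes (interaction), with 95% intervals from limma; filled points have an adjusted p under 0.05. *Dhrs3* has the narrowest intervals, *Aldh1a3* has the lowest values, at -4.23 and -2.91 in the comparisons with the libraries with the VAD *Stra6-/-* label, and *Cyp26a1* has the widest intervals.

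Whether the change with diet differed between genotypes was tested as an interaction over all 20 libraries. It passed for *Aldh1a3*, with a difference of -3.78 on the log2 scale (SE 0.14, adjusted p = 6.15e-15, limma), and for *Cyp26a1*, with 3.76 (SE 0.77, adjusted p = 0.000423, limma). *Cyp1b1* differed by 1.47 (SE 0.53, adjusted p = 0.0277, limma), *Aldh1a2* by 0.90 (SE 0.24, adjusted p = 0.0037, limma) and *Dhrs3* by 0.39 (SE 0.09, adjusted p = 0.00154, limma). This made 5 of 7 members, 4 with a higher and 1 with a lower change in the *Stra6-/-* groups, against 44.2% of all genes, 19.5% higher and 24.8% lower. It was -0.33 for *Aldh1a1* (95% interval -0.76 to 0.11) and -0.24 for *Cyp26b1* (95% interval -1.24 to 0.77), which did not pass. That of *Cyp1b1* lost its call with edgeR (0.99, adjusted p = 0.145), with DESeq2 (1.00, adjusted p = 0.179) and without VAD WT replicate 1, 3 or 5 (adjusted p from 0.0549 to 0.0590, limma), and without all 3 it was 0.07 (adjusted p = 0.580, limma). For *Aldh1a1* the interaction was called without VAD WT replicate 2 (-0.46, adjusted p = 0.0401, limma) or 4 (-0.46, adjusted p = 0.0468, limma) and without both (-0.68, adjusted p = 8.46e-07, limma). That of *Cyp26b1* was called in opposite directions, at 0.59 without VAD WT replicates 2 and 4 (adjusted p = 0.0107, limma) and at -1.48 without replicates 1, 3 and 5 (adjusted p = 6.49e-08, limma). These values rest on the libraries with the VAD *Stra6-/-* label, in which *Stra6* goes against the label. Sex-linked transcripts differed between the groups as well, so that the interaction is not free of sex.

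The 3 Aldh1a genes contributed unequal shares to their summed level per kb. The summed level of the 3 genes was 966 ± 53.6 per kb in VAS WT, 1266 ± 110.1 in VAD WT, 1333 ± 39.8 in VAS *Stra6-/-* and 1200.5 ± 35.3 in the libraries with the VAD *Stra6-/-* label. The share of *Aldh1a3* in it was 35.7 to 40.9% in VAS WT, 19.4 to 25.0% in VAD WT and 49.5 to 53.1% in VAS *Stra6-/-*. It was 2.71 to 3.25% in the libraries with the VAD *Stra6-/-* label, and no pair of groups overlapped. *Aldh1a2* made up 43.9 to 52.5% there, against 14.3 to 16.8% in VAS *Stra6-/-*. In VAD WT the share of *Aldh1a2* was 41.9 and 44.0% in replicates 2 and 4 and 18.5 to 19.4% in the others. The share of *Aldh1a1* ranged from 32.2 to 60.7% over all libraries. Of the *Cyp26a1* and *Cyp26b1* level as a pair, *Cyp26a1* made up 44.1 ± 2.90% in VAS WT and 13.9 ± 4.37% in VAS *Stra6-/-*. It made up 37.2 ± 12.4% in VAD WT and 64.9 ± 3.63% in the libraries with the VAD *Stra6-/-* label. Shares are given as a description, since they combine the tests above.

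**Figure D4:**
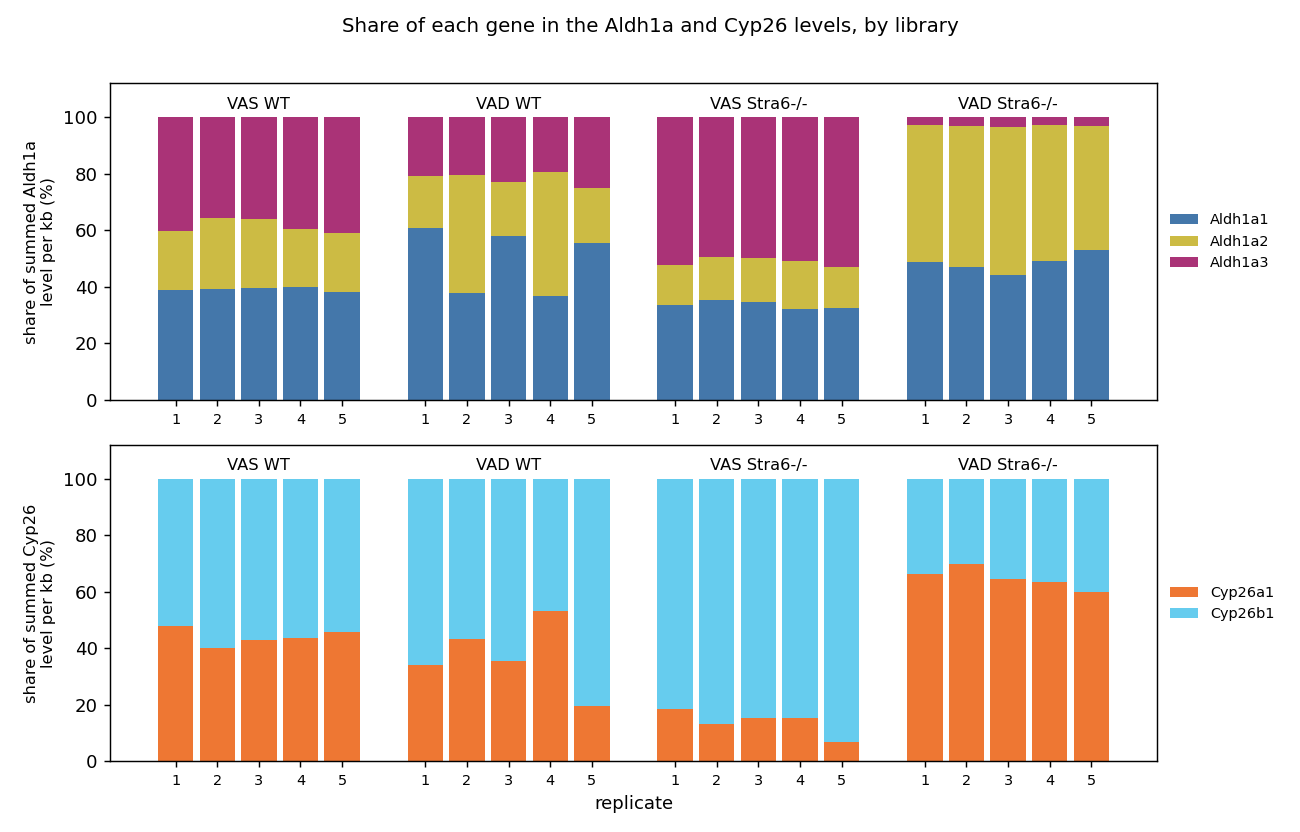
Share of each gene in the summed level per kb of exon of *Aldh1a1*, *Aldh1a2* and *Aldh1a3* (top) and of *Cyp26a1* and *Cyp26b1* (bottom), one bar per library. *Aldh1a3* makes up 49.5 to 53.1% in VAS *Stra6-/-* and 2.71 to 3.25% in the libraries with the VAD *Stra6-/-* label, and VAD WT replicates 2 and 4 have more *Aldh1a2* than replicates 1, 3 and 5.

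Genes of the steps before and after these enzymes were followed as lists. Their counts stand beside 26.6% of all genes called in VAS *Stra6-/-* against VAS WT, 8.78% in VAD WT against VAS WT, and 53.2% and 55.9% in the libraries with the VAD *Stra6-/-* label against VAS *Stra6-/-* and VAD WT. Of 14 other retinol and retinal redox enzymes, 12 were tested. In VAS *Stra6-/-* against VAS WT 2 were called, both lower, and in VAD WT against VAS WT 3 were called, all lower. Without VAD WT replicates 2 and 4, the latter comparison had 2 higher and 5 lower, beside 37.9% of all genes called in that fit. With only the groups compared in the fit, 3 were higher and 4 lower in the former, and 1 was lower in the latter. The share of all genes called in such fits is not given here, so that their counts are no result about a list alone. In the libraries with the VAD *Stra6-/-* label, 5 were higher and 5 lower than in VAS *Stra6-/-*, with a median log2 fold change of 0.13 beside -0.07 over all genes, and 6 were higher and 5 lower than in VAD WT. The higher group held *Rdh10*, which oxidises retinol to retinal ahead of the Aldh1a enzymes, at 15462 ± 332 against 1741 ± 24.2 in VAS *Stra6-/-* (log2 fold change 3.15, adjusted p = 6.65e-08, limma). The lower group held the alcohol dehydrogenases *Adh1* (log2 fold change -3.60, adjusted p = 4.08e-13, limma) and *Adh7* (log2 fold change -4.34, adjusted p = 4.56e-14, limma). Within VAD WT, *Rdh10* was at 235 to 355 in replicates 1, 3 and 5 and at 1181 and 1418 in replicates 2 and 4. In VAD WT against VAS WT the log2 fold change of *Rdh10* was -1.325 (adjusted p = 0.0155, limma). It ranged from -2.18 to -0.04 over 21 alternatives, and 5 of them lost the call.

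On the side of clearance, *Cyp26c1* was at most 9.27 in any library and was not called. *Por*, the reductase that gives electrons to the microsomal P450 enzymes, was at 7377 ± 239 in VAS *Stra6-/-* and 4034 ± 162 in VAS WT, a log2 fold change of 0.87 (adjusted p = 6.53e-10, limma). In the libraries with the VAD *Stra6-/-* label it was at 2801 ± 125, with a log2 fold change of -1.40 against VAS *Stra6-/-* (adjusted p = 1.17e-14, limma). *Cyp2s1*, a P450 that can act on retinoic acid, was at 570 ± 46.8 in VAS *Stra6-/-* and 20.6 ± 16.0 in the libraries with the VAD *Stra6-/-* label (log2 fold change -5.06, adjusted p = 3.21e-10, limma).

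Of 11 genes for retinoid binding, uptake and storage, 1 was higher and 4 lower in VAS *Stra6-/-* than in VAS WT, the targeted *Stra6* among the latter, and with only these groups in the fit 3 were higher and 5 lower. In VAD WT against VAS WT 3 were called, all lower. Without VAD WT replicates 2 and 4, where 37.9% of all genes were called, 4 were higher and 3 lower. In the libraries with the VAD *Stra6-/-* label 3 were higher and 2 lower than in VAS *Stra6-/-*, and 3 were higher and 3 lower than in VAD WT, with *Stra6* among the higher ones in both (log2 fold change 1.78 and 1.23). *Lrat*, which stores retinol as esters, was at 19569 ± 822 there, against 2561 ± 122 in VAS *Stra6-/-* (log2 fold change 2.93, adjusted p = 7.35e-10, limma). Of the 6 retinoic acid and retinoid X receptors, 2 were higher in VAS *Stra6-/-* than in VAS WT, and 1 was higher and 4 lower in the libraries with the VAD *Stra6-/-* label than in VAS *Stra6-/-*. The higher one was *Rarb*, itself induced by retinoic acid, with a log2 fold change of 0.62 (adjusted p = 0.000499, limma), and among the lower ones was *Rarg*, the receptor typical of surface epithelia, with -2.72 (adjusted p = 4.44e-13, limma). In VAD WT against VAS WT 0 of the 6 were called with limma, edgeR or DESeq2, and 2 were lower at an unadjusted p under 0.05. Without VAD WT replicates 2 and 4, beside the same 37.9% of all genes, 1 was called higher and 2 lower with limma.

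Of 11 genes known to be induced by retinoic acid, 9 were tested, and 5 of the 11 also stand in the lists above. In VAS *Stra6-/-* against VAS WT 1 was higher (*Tgm2*) and 2 were lower, the targeted *Stra6* among them. In VAD WT against VAS WT 3 were called, all lower, *Lrat* among them. Without VAD WT replicates 2 and 4, where 37.9% of all genes were called, 2 were higher and 5 lower. In the libraries with the VAD *Stra6-/-* label 4 were higher, the targeted *Stra6*, *Lrat* and *Rarb* among them, and 1 was lower (*Tgm2*) than in VAS *Stra6-/-*, and the same 5 genes moved the same way against VAD WT.

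The genes whose levels were most like those of each member over the 20 libraries were named by the Pearson correlation of log2(value + 1), among 13520 genes with a mean of at least 50. The libraries share their group and tissue make-up, so that this is a description. *Aldh1a3* was closest to *Gda* (r = 0.997) and to the keratins of stratified epithelia *Krt14* and *Krt6a* (r = 0.996 for both). *Aldh1a2* was closest to the matrix genes *Thbs2* (r = 0.979), *Lum* (r = 0.979) and *Cilp2* (r = 0.978). *Cyp1b1* was closest to *Prnp* (r = 0.989), *Edn3* (r = 0.988) and *Tgfbr2* (r = 0.986). *Aldh1a1* was closest to *Aktip* (r = 0.958), *Eef1a1* (r = 0.920) and *Commd6* (r = 0.910). *Cyp26a1* was closest to *Dtx3* (r = 0.919), *Dact3* (r = 0.912) and the Notch target *Hey1* (r = 0.909), and *Cyp26b1* to *Glcci1* (r = 0.940), *Synrg* (r = 0.936) and *Pfkfb2* (r = 0.925). *Dhrs3* had the weakest likeness, with *Tapbp* (r = 0.887), *Slc39a4* (r = 0.795) and *Slc5a5* (r = 0.774).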

How the data were processed

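RNA-seq data of 20 outer eyecup libraries were used, 5 in each of 4 groups named by the labels. Reads were aligned by the authors with STAR 2.5.3a (GRCm38/mm10), and gene counts came from RSEM 1.2.30 and were normalized with DESeq2 1.32.0. The deposited signal equals these counts over 1 size factor per library. In 19 libraries all low values, the ones checked, were whole multiples (within 0.01) of 1 step. In all 20 the inverse of that step matched the median-of-ratios size factor within 0.01%. In VAD *Stra6-/-* replicate 1 the step was almost 1, so its reads were not taken as recovered and it stayed out of the tests on counts. Whether counting used strand is not given in the sources used here, but no exon of a member overlapped an exon of another gene in GENCODE vM21.

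The main test was limma 3.58.1 in R 4.3.3, fitted to log2(value + 1) as group means over all 20 libraries, with an intensity trend and Benjamini-Hochberg adjustment across the 18807 genes that had 5 or more reads in total. Genes were called at an adjusted p under 0.05. The pseudocount of 1 shrinks changes of low genes. Levels were compared between genes per kb of merged exons in GENCODE vM21, the source of all gene positions. The limit of 3 reads for a count of 0 covers counting error only. Pairs of libraries of 1 group differed by more than counting noise (chi-square per gene from 3.39 to 202), so that none was counted as a copy of another.

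The members, the pathway and marker lists and the tests were chosen with earlier results of these data known. Named genes were the members, listed genes and the 3 genes most correlated with each member, though not every listed gene is reported here. Alternatives were pseudocounts of 0.5 and 4, no filter and a mean of at least 10, TMM factors, edgeR 4.0.16, DESeq2 1.42.0, the groups compared only, a replicate block, leaving out VAD WT replicates 2 and 4 and leaving out each library. Leaving out VAD WT replicates 1, 3 and 5 was added after seeing the data. The test was tested on simulated data with the same spread in every group and changes in VAS *Stra6-/-* only. That setting does not cover the split within VAD WT.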

Additional observations from a re-analysis of the deposited data

Results flagged for a closer look

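Among 31 groups of 5 libraries with any spread, 4 held a library that stood apart from the other 4 by Dixon's test, which by chance marks about 1 group in 20. Replicate 5 with the VAD *Stra6-/-* label had the highest *Aldh1a1* of its group, at 3236, with a gap of 0.742 of the range. VAS WT replicate 2 had the lowest *Aldh1a3*, at 1539, with a gap of 0.834 of the range. *Dhrs9* was set apart in VAS WT replicate 4, at 8.78 from 9 reads with a gap of 1.0 of the range, and in VAS *Stra6-/-* replicate 2, at 4.39 from 4 reads with a gap of 0.768.

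The change with diet differed between the genotypes by limma's interaction test for 5 members. The difference, *Stra6-/-* minus WT, was -3.78 for *Aldh1a3*, 3.76 for *Cyp26a1*, 1.47 for *Cyp1b1*, 0.90 for *Aldh1a2* and 0.39 for *Dhrs3* on the log2 scale. All 5 rest on the libraries with the VAD *Stra6-/-* label, in which *Stra6* was not low.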

How the results depend on the processing

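Over 35 results of the 7 members, 725 of 798 values under an alternative kept the direction and the side of the threshold, 35 lost the call, 19 gained it and 19 changed direction. The count of members called in VAS *Stra6-/-* against VAS WT rose from 3 to 5 with only the groups compared and without VAD WT replicates 2 and 4 or replicates 1, 3 and 5. The count for VAD WT against VAS WT went from 4 to 1 with only the groups compared and to 7 without VAD WT replicates 2 and 4. For the libraries with the VAD *Stra6-/-* label against VAD WT, it went from 5 to 3 with only the groups compared. Without VAD WT replicates 2 and 4, the share of all genes called in VAD WT against VAS WT rose too, as given above. The shares under the other settings are not given here, so that these counts are no result about the members alone. Leaving out each library in turn, counts ranged from 2 to 3, 3 to 6, 5 to 6, 4 to 5 and, for the interaction, 4 to 6.

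Directions changed in VAD WT against VAS WT for *Cyp1b1* with edgeR (0.38), DESeq2 (0.36) and without VAD WT replicates 1, 3 and 5 (1.30), a set that also turned *Cyp26a1* (0.66) and *Cyp26b1* (0.42). Against VAD WT, the libraries with the VAD *Stra6-/-* label then had *Aldh1a1* at 0.44 and *Cyp26a1* at -0.35, and the interaction of *Aldh1a1* was 0.20. Without VAD WT replicates 2 and 4, *Cyp26b1* was at 0.74 against VAD WT and its interaction at 0.59. Over the single libraries left out, *Cyp1b1* in VAD WT ranged from -0.47 to 0.24, *Aldh1a1* against VAD WT from -0.21 to 0.022, *Cyp26b1* against VAD WT from -0.42 to 0.24 and its interaction from -0.57 to 0.094. The cause was not tested.

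Same-numbered libraries did not deviate together (correlations from -0.07 to 0.07 over 30 pairs, and in 16 of 60 comparisons of a library with another group its own number correlated best), so that the numbers do not pair them. With a replicate block the counts were 2, 4, 6, 5 and 5, the change being *Dhrs3* in VAS *Stra6-/-* against VAS WT (adjusted p = 0.0512, limma). Depth limits *Dhrs9*, at no more than 9 reads.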
